A study of Rattus norvegicus with 4 samples.

Results

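Isolated H3K4me3 regions of the rat sciatic nerve were described here, that is, called regions with no other called region within 50 kb of either edge. H3K4me3 is trimethylation of lysine 4 on histone H3. Male adult Sprague Dawley rats had the sciatic nerve of 1 limb cut, and the contralateral limb received a sham operation, an opening of the skin alone. The transected (cut) nerve distal to the lesion and the sham nerve were taken at day 1, and the labels also carry the entry P42 under passage without saying what it stands for. There were 2 transected and 2 sham samples, and no genotype or drug is named. Each group was deposited as 1 pooled peak list, so the 4 samples gave 2 lists and no value has a replicate spread. Whether the samples of a group were separate animals is not stated in the labels, and nerve is a mixture of cell types, in which fewer marked cells and less mark per cell cannot be told apart.

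H3K4me3 is laid down by the SET1 and MLL family of methyltransferase complexes and marks the promoters of active genes, as well as many CpG-island promoters that are poised rather than transcribed. Genes are unevenly spread along chromosomes, so promoters stand close together in gene-rich stretches and far apart in gene-poor ones. A promoter far from others also lacks the mark of neighbours at its edges.

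Members were selected on measured values. Peaks of both lists that shared 1 bp or more were merged into 39013 regions, of which 27962 were present in both lists. A region was a member where the normalized tag count, averaged over the lists, was 20 or more and the nearest other merged region of either list lay more than 50 kb away. Normalized tags are sequenced fragments scaled by the authors' caller to 10000000 per list. This left 2081 isolated regions of 19792 shared regions with at least 20 mean tags. The other 17711 are called non-isolated below. Presence in both lists, tag count and distance chose the members, so these are given as descriptions only. No test is given for any comparison, because each condition is 1 list.

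Sequencing gave 22595649 tags in sham and 21307148 in transected nerve. The isolated regions took up 2149 of the 35856 sham peaks (5.99%) and 2192 of the 33100 transected peaks (6.62%). They held 9.92% of the tags in peaks in each list. Before scaling, the weakest value of a member was 28 tags in the sham nerve and 13 in the cut nerve, and the medians were 606 and 520 tags.

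The limits of the rule fell within a continuous range of regions. Just inside the tag limit, chr1:262363193-262363765 had 22.6 normalized tags in the sham nerve and 17.4 in the cut nerve. chr18:63932299-63932704 had 21.2 and 18.8. Just outside it, chr18:43083647-43084316 had 22.1 and 17.8 tags, a mean of 19.95. chr1:103038025-103038446, with the same mean, had 23.0 and 16.9. At the distance limit, chr16:3731544-3733028 lay 50031 bp and chr15:87004373-87006183 lay 50066 bp from the nearest region, and both were members. chr9:25861089-25863245 and chr2:62843843-62844948 lay 49988 and 49938 bp away and were not. Coordinates (chr, start, end) are as deposited. No source used here gives their genome build, and regions were therefore not assigned to genes.

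The share of regions that were isolated was nearly the same at all signal strengths. Isolated regions made up 10.5% of the shared regions with at least 20 mean tags. Within 6 classes of mean tag count, from 20 to 50 tags up to 1000 or more, the share lay between 10.1% and 11%. At the 50 kb limit, strong regions far from any other were thus about as frequent among strong regions as weak ones were among weak regions. Signal still varied with distance. Median mean tags were 232 with a neighbour within 1 kb and 398 at 20 to 50 kb. Among members they fell from 323 at 50 to 100 kb to 139 beyond 200 kb. Median tag counts of isolated regions were 268 in the sham nerve and 244 in the cut nerve, against 290 and 273 for non-isolated regions. Members ranged from 20 to 2492.7 mean tags, with quartiles at 58.6 and 691.

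The members with most signal were nearly equal in both nerves. The strongest lay at chr9:92166206-92169508, with 2393.34 normalized tags in the sham nerve and 2592.1 in the cut nerve. Its centred log2 ratio of transected over sham was 0.19 (95% exact counting interval 0.13 to 0.24), where centring subtracts the median log2 ratio of all shared regions, -0.07. Its clonal fold, the caller's measure of tags piled on few positions, was 1.82 in the sham nerve and 1.51 in the cut nerve, where the caller removes regions above 2. The nearest region was 90.9 kb away.

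chr13:52527580-52531260 had 2246.03 tags in the sham nerve and 2142.5 in the cut nerve, and chr13:30819425-30822020 had 1969.8 and 1922.8. chr19:45636518-45641037 had 2100.0 and 1914.9 tags and lay at the edge of an empty stretch of 2335.1 kb. The others of the 6 strongest were chr8:62318304-62320813, with 1918.5 and 2078.2 tags, and chr4:22017200-22019468, with 2001.7 and 1915.8. All 6 had centred log2 ratios between -0.06 and 0.19, so the lists differed by at most 1.14-fold in these regions.

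Chromosomes differed widely in how many of their regions stood alone. On chromosome X, 154 of 536 shared regions were isolated, 28.7% (95% exact interval 24.9 to 32.8), against 10.0% of 19256 on the 20 autosomes. The lowest shares were 2.94% on chromosome 12 (19 of 647), 3.21% on chromosome 10 (51 of 1591) and 5.78% on chromosome 20 (36 of 623). Chromosomes 4, 2 and 15 had the highest autosomal shares, at 14.7%, 14.5% and 14.5%. The intervals cover counting error alone and treat regions as independent.

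The share of isolated regions followed the density of called regions. Chromosome X had 5.57 merged regions per Mb, and chromosomes 12, 10 and 20 had 24.2, 26.3 and 22.7, measured from the first to the last region of each chromosome. Across the 21 chromosomes Pearson's r between region density and the share isolated was -0.86, and across the 20 autosomes it was -0.95. Both quantities were counted from the same regions, so this is a description of how the regions are spaced. Isolated regions per Mb ranged from 0.35 on chromosome 12 to 0.833 on chromosome 8 among the autosomes, and reached 1.0 on chromosome X.

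**Figure D1:**
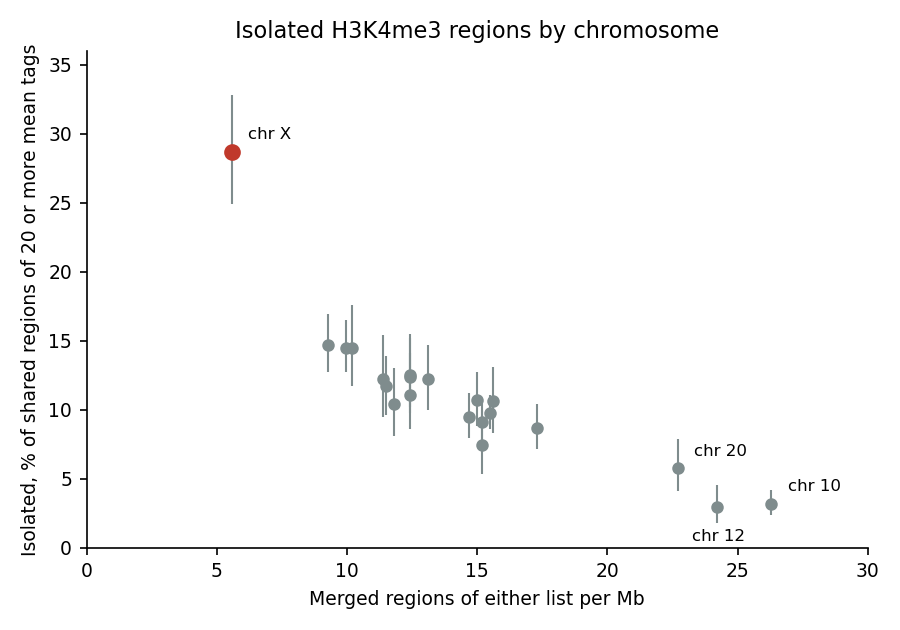
Share of shared regions of at least 20 mean tags that were isolated (y axis, %) against merged regions of either list per Mb (x axis), 1 point per chromosome with 95% exact counting intervals. Chromosome X (red) sits at 28.7% and 5.57 regions per Mb, and chromosomes 12 and 10 sit at 2.94% and 3.21% with the highest densities.

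Isolated regions of chromosome X had medians close to those of autosomal ones but lacked the strongest signals. The median was 257 mean tags on X and 258 on the autosomes, and the median called length was 1312 bp and 1288 bp. At least 1000 mean tags were reached by 2 of 154 isolated X regions (1.3%) and by 228 of 1927 isolated autosomal regions (11.8%). The same held for non-isolated regions, at 2.09% on X and 11.8% on the autosomes. The scarcity of strong regions on X was thus not limited to isolated ones. The rats were male, and tag counts were not adjusted for chromosome copy number, whose part in this was not tested. The share isolated was higher on X in each of the 6 tag classes, from 20% (of 10 regions with 1000 or more tags) to 32.1% (of 190 regions with 200 to 500 tags). On the autosomes it ran from 8.99% to 10.7%. Between the nerves, the median centred log2 ratio of isolated X regions was -0.01.

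The empty flanks of isolated regions were mostly between 50 and 150 kb on the nearer side. The median distance to the nearest region was 83.6 kb (quartiles 62.7 and 132 kb), and to the nearest region on the other side it was 194 kb. For non-isolated regions the nearest region was at a median of 5.42 kb. More than 100 kb of empty sequence on both sides was found for 771 members (37.0%), more than 200 kb for 325 (15.6%) and more than 1000 kb for 23 (1.11%). At the outer end of a chromosome's regions lay 12 members, whose outer distance is unknown.

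The most isolated regions were not strong. The 23 members more than 1 Mb from any other region had a median of 128 mean tags (22.0 to 1118.5), and 4 of them had 500 or more. Chromosome 5 held 7 of them, chromosome X 5 and chromosome 2 held 4. None was at least 1.5-fold higher in the cut nerve, where 3.11% of all shared regions of at least 20 tags were, and 3 were at least 1.5-fold lower, where 8.15% of all were. With 23 regions these counts are near the general rate. The most remote region, at chrX:94949237-94950369, had 165.1 tags in the sham nerve and 146.9 in the cut nerve, with 2450.1 kb empty on one side and 4281.8 kb on the other.

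Next in distance came chr2:111256742-111257621, with 63.7 tags in the sham nerve and 58.2 in the cut nerve, 2020.5 kb from its neighbour. chr1:188741936-188742276 had 99.6 and 119.7 tags in only 340 bp. chr2:150260606-150261539 had 158.0 tags in the sham nerve and 98.6 in the cut nerve, a centred log2 ratio of -0.61 (interval -0.86 to -0.36), which was the only one of these 5 past 1.5-fold. chr5:48229347-48232692 had 289.0 and 326.7 tags over a broad 3345 bp.

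The nearest neighbour of an isolated region was often weak, about as often as called regions in general. It was itself a shared region of at least 20 mean tags for 1101 members (52.9%). It was present in both lists for 1548 members (74.4%), in the sham list alone for 369 (17.7%) and in the transected list alone for 164 (7.88%). It was a region of 1 calling window of 150 bp for 345 members (16.6%). Among all 39013 merged regions, 19792 were shared with at least 20 mean tags and 27962 were present in both lists. In these 2 shares the neighbours were near merged regions in general. For neighbours in 1 list alone or of 1 window, the share over all merged regions is not given here. Those counts therefore describe the neighbours only, and the sham list was the longer one, with 35856 peaks against 33100. Weak neighbours still helped decide which regions counted as isolated. With neighbours counted from the sham list alone, 2337 shared regions would have been isolated, and from the transected list alone 2673. With only neighbours present in both lists counted, it was 3126, which is over 1.5 times the 2081 reported.

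Many isolated regions stood next to each other along a chromosome. In 483 cases (23.2%) the nearest region of a member was itself a member. By the rule, a region beside a member already has more than 50 kb empty on the facing side, which favours this. No expected share was worked out, so the counts describe the layout only. Consecutive members with no other region between them accounted for 857 of the 2081 (41.2%), and 90 such series held 3 or more. The longest held 7 regions, between 66389652 and 68536953 on chromosome X, a span of 2.15 Mb. The next held 6 regions each, in 6.36 Mb of chromosome 8 from 15094593 to 21459367 and in 1.75 Mb of chromosome X from 2643120 to 4396281.

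In the longest series all 7 regions had fewer tags in transected than in sham nerve, also after centring. Normalized tags in sham nerve, in order along the chromosome, were 39.4, 68.6, 69.5, 74.8, 210.7, 124.4 and 651.5. In transected nerve they were 20.7, 25.8, 53.5, 64.8, 193.4, 100.9 and 536.46. The counting intervals of the centred log2 ratio lay below 0 for the first (-0.86, interval -1.42 to -0.32), the second (-1.34, interval -1.81 to -0.89) and the last (-0.21, interval -0.32 to -0.10). For the other 4 they reached above 0. Per kb of called length the log2 ratio of the first was -0.05, since it was called over 775 bp in the sham nerve and 416 bp in the cut nerve. The series was singled out for its length, not for its ratios. Centring on all shared regions leaves in a shift with signal, and most of the 7 regions were weak. Isolated regions had a median centred log2 ratio of -0.25 from 20 to 50 mean tags, -0.17 from 50 to 100 and -0.15 from 100 to 200. In the classes of the fifth and the last region the medians were -0.01 and 0.09. Negative ratios were thus common among weak isolated regions. The other 2 series had 5 of 6 regions higher in the cut nerve after centring.

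Median width rose with tag count in a similar way for isolated and non-isolated regions up to 1000 tags. Length is given as the called length averaged over the lists. In the class from 20 to 50 tags the median was 548 bp for isolated and 574 bp for non-isolated regions. From 200 to 500 tags it was 1534 and 1466 bp, and from 500 to 1000 tags 1686.5 and 1739 bp. The upper quartiles from 500 to 1000 tags were further apart, at 2133.1 and 2287 bp. Over all classes, with the non-isolated regions weighted to the members' numbers in each tag class, the medians were 1288.5 bp for isolated and 1272.5 bp for non-isolated regions.

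Among the strongest regions the isolated ones were narrower and denser. With 1000 or more mean tags, 230 isolated regions had a median length of 2076.8 bp (quartiles 1724.2 and 2636.0) and 2047 non-isolated regions one of 2495 bp (quartiles 1996.5 and 3388.2). Tags per kb of called length had medians of 616 and 507. A called length of at least 4 kb was found for 6.96% of the isolated and 16% of the non-isolated regions of this class. The caller split 5.22% of these isolated regions and 11.7% of the non-isolated ones into 2 or more peaks in at least 1 list. Their median clonal fold was 1.27 and 1.13.

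This difference in width was graded with distance. In regions of at least 1000 tags the median length fell from 3164.5 bp with a neighbour within 1 kb, through 2750 bp at 1 to 5 kb, 2283 bp at 5 to 20 kb and 2170 bp at 20 to 50 kb. Past the 50 kb limit it was 2153.8 bp at 50 to 100 kb, 1848.5 bp at 100 to 200 kb (45 regions) and 1730.5 bp beyond 200 kb (17 regions). Tags per kb rose over the same steps from 421 to 656, and the median clonal fold was 1.03 within 1 kb and 1.25 to 1.28 in the isolated classes. Regions at 20 to 50 kb and at 50 to 100 kb thus had nearly the same length. The isolated median was 0.832 of the non-isolated one, and 0.873 of it when peaks within 1 kb of each other were merged first. Of non-isolated regions more than 5 kb from a neighbour it was 0.925.

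**Figure D2:**
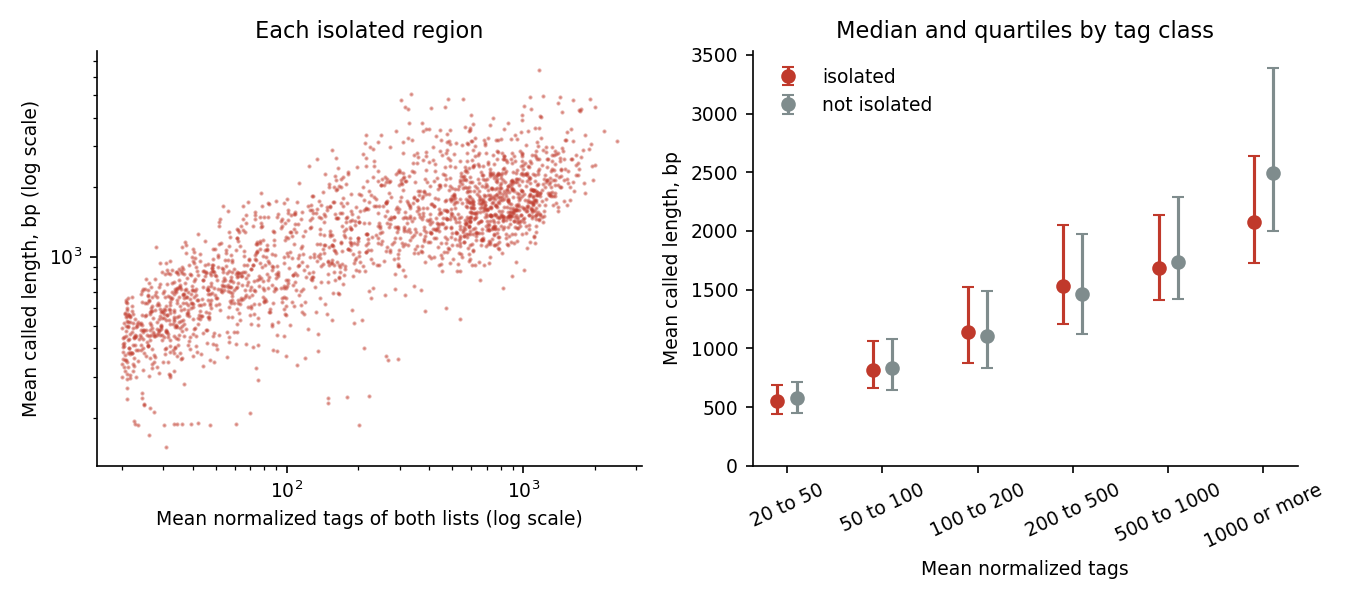
Left, mean called length in bp against mean normalized tags for each of the 2081 isolated regions, both axes logarithmic. Right, medians (points) and quartiles (bars) of called length by tag class for isolated (red) and non-isolated (grey) regions, which part in the class of 1000 or more tags at 2076.8 and 2495 bp.

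Broad isolated regions were few. A mean called length of 4 kb or more was found for 26 members (1.25%), against 2.64% of non-isolated regions weighted to the same tag classes. From 500 to 1000 tags the shares were 0.577% of isolated and 2.81% of non-isolated regions. From 200 to 500 tags the order was the other way, at 1.88% and 0.913%. The tag counts of the 26 members ran from 302 to 2007.5, and 10 of the 26 had under 200 tags per kb. The widest, at chr2:73981661-73988145, spanned 6484 bp with 1165.3 tags in the sham nerve and 1164.9 in the cut nerve, equal within counting error.

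The other widest members differed more. chr2:76896064-76902452 had 249.2 tags over 3274 bp in the sham nerve and 857.9 tags over 6388 bp in the cut nerve. chr4:180860245-180866345 had 413.8 tags in 1 peak in the sham nerve and 252.42 tags in 4 peaks in the cut nerve. chr11:82899668-82905105 had 596.1 and 364.6 tags, and chr2:105046883-105052233 had 1350.3 and 1069.6. In 3 of these 4 the called length was shorter in the cut nerve.

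A few isolated regions were very narrow for their signal. Among 1358 members with at least 100 mean tags, 6 (0.442%) were under 350 bp, a limit set after their values were seen. Of the 11841 non-isolated regions with at least 100 tags, 17 (0.144%) were. chr7:10274166-10274434 had 228.8 tags in the sham nerve and 216.8 in the cut nerve within 268 bp. chr13:98346994-98347190 had 185.9 and 217.3 tags within 196 bp. The 6 had a median score of 68, against 14 for the other members of at least 100 tags, and a median clonal fold of 1.46 against 1.01. The 17 narrow non-isolated regions had a median score of 66 against 14 for the rest, and a clonal fold of 1.41 against 0.96. High score and clonal fold were thus not particular to the isolated ones. The part of tags piled on few positions in these regions was not tested.

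Between transected and sham nerve, fewer isolated regions were higher than lower by 1.5-fold or more. The median log2 ratio of the 2081 isolated regions was -0.07 without centring. Centred on all shared regions, which by construction brings it near 0, it was 0.00, against 0.02 for the 17711 non-isolated regions. At least 1.5-fold higher in the cut nerve were 35 isolated regions (1.68%), where 3.11% of all 19792 shared regions of at least 20 tags were. At least 1.5-fold lower were 175 (8.41%), where 8.15% of all were. Lower regions thus came at about the general rate, and higher ones at a lower rate. Weighted to the members' tag classes, 3.39% of non-isolated regions were higher and 8.45% lower.

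The share of higher regions among those past 1.5-fold depended on scaling, and it was lower for isolated than for non-isolated regions under each scaling tried. It was 16.7% for isolated and 28.8% for non-isolated regions as centred tag sums. Centring within tag classes made it 33.7% (58 higher, 114 lower) and 46.8%, and tags per kb made it 30.2% (39 higher, 90 lower) and 38.4%. Without centring it was 10.4% and 20.2%. Non-isolated regions were not alike in this. As centred tag sums, 278 were higher and 389 lower within 1 kb of a neighbour, and 126 and 326 at 1 to 5 kb. At 5 to 20 kb it was 113 and 478, and at 20 to 50 kb 64 and 245.

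Higher regions were most frequent beside a close neighbour. With tag classes weighted alike, 5.9% of regions with a neighbour within 1 kb were at least 1.5-fold higher, 3.28% at 1 to 5 kb, 2.1% at 5 to 20 kb and 2.13% at 20 to 50 kb. The isolated regions had 1.4% at 50 to 100 kb, 2.34% at 100 to 200 kb and 1.73% beyond 200 kb. The low share of higher regions was therefore common to regions more than 5 kb from a neighbour and not particular to the isolated ones. The share at least 1.5-fold lower showed no such gradient, lying between 7.59% and 10.2% in all 7 distance classes.

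**Figure D3:**
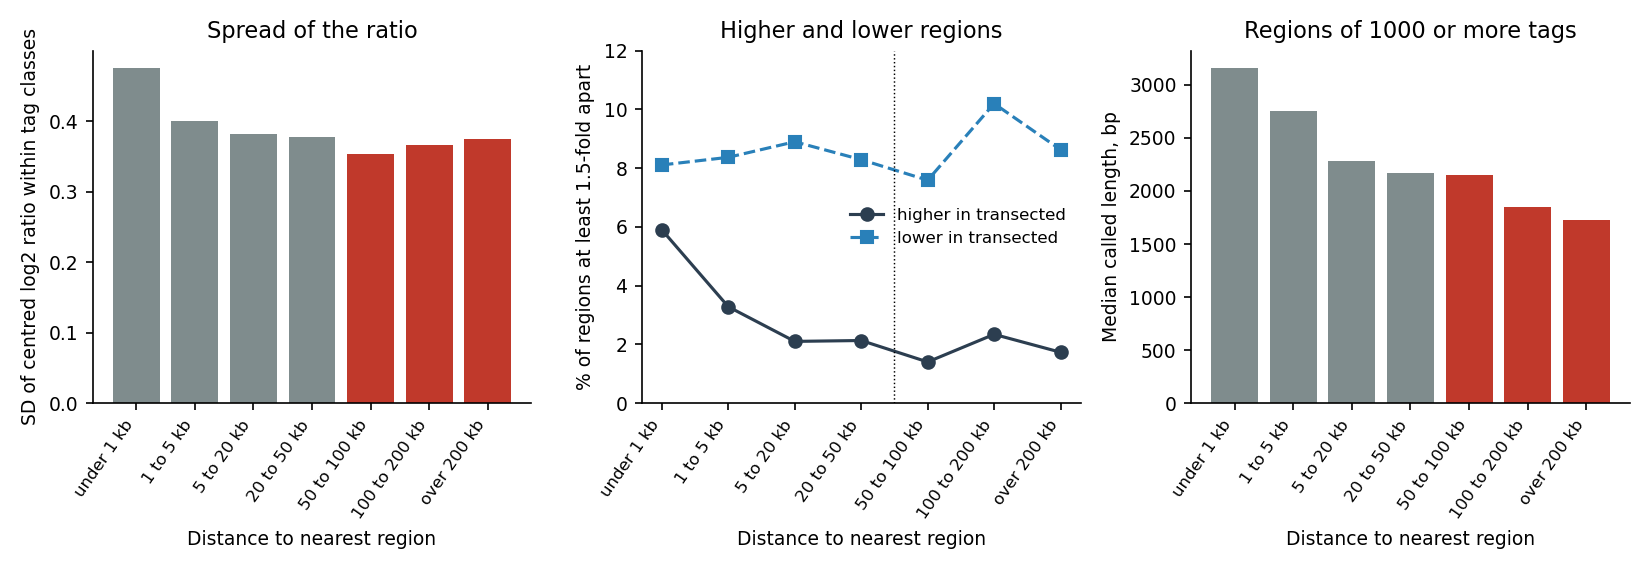
Measures by distance to the nearest merged region, with tag classes weighted to the isolated regions' numbers in the left and middle panels (red bars, and right of the dotted line, isolated). Left, SD of the centred log2 ratio within tag classes, 0.48 within 1 kb of a neighbour and 0.35 to 0.37 in the isolated classes. Middle, share of regions at least 1.5-fold higher or lower in the cut nerve. Right, median called length in bp of regions of 1000 or more mean tags, falling from 3164.5 to 1730.5 bp.

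The ratio shifted with signal in isolated and non-isolated regions alike. In isolated regions the median centred log2 ratio was -0.25 from 20 to 50 tags, -0.17 from 50 to 100, -0.15 from 100 to 200, -0.01 from 200 to 500, 0.09 from 500 to 1000 and 0.13 at 1000 or more. In non-isolated regions it ran from -0.18 to 0.12 over the same classes. Of the 175 lower isolated regions, 116 had 20 to 50 tags and none had 1000 or more. Of the 1438 lower non-isolated regions, 867 had 20 to 50 tags and 2 had 1000 or more. The called length moved with the tag ratio. In isolated regions the median ratio of called lengths, transected over sham, was 0.874 in the weakest class and 0.996 in the strongest. The parts of depth and called length in this shift were not tested.

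Isolated regions varied less between the nerves than non-isolated regions of like signal. The SD of the centred log2 ratio was smaller for isolated regions in each of the 6 tag classes, from 0.59 against 0.68 in the weakest to 0.13 against 0.15 in the strongest. Pooled within classes it was 0.36 for isolated and 0.41 for non-isolated regions. The interquartile range differed less, 0.39 against 0.42, and in the class from 50 to 100 tags it was larger for isolated regions (0.54 against 0.52). By distance, the SD was 0.48 with a neighbour within 1 kb and 0.40 at 1 to 5 kb, then between 0.38 and 0.35 in all further classes. The SD of isolated regions was 0.871 of that of all non-isolated regions and 0.949 of that of non-isolated regions more than 5 kb from a neighbour, so most of the contrast lay in regions with a close neighbour.

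Called edges were about equally stable. The outer edges of a region moved by a median of 66.0 bp between the lists in isolated regions and by 69.0 bp in non-isolated ones with tag classes weighted alike. The stretch called in both lists was a median of 89.5% and 89.4% of the merged width. Isolated regions were called longer in sham in 69.8% of cases and longer in the cut nerve in 29.6%, against 65.1% and 34.6%. The caller split 7.74% of isolated and 8.59% of non-isolated regions in at least 1 list.

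**Figure D4:**
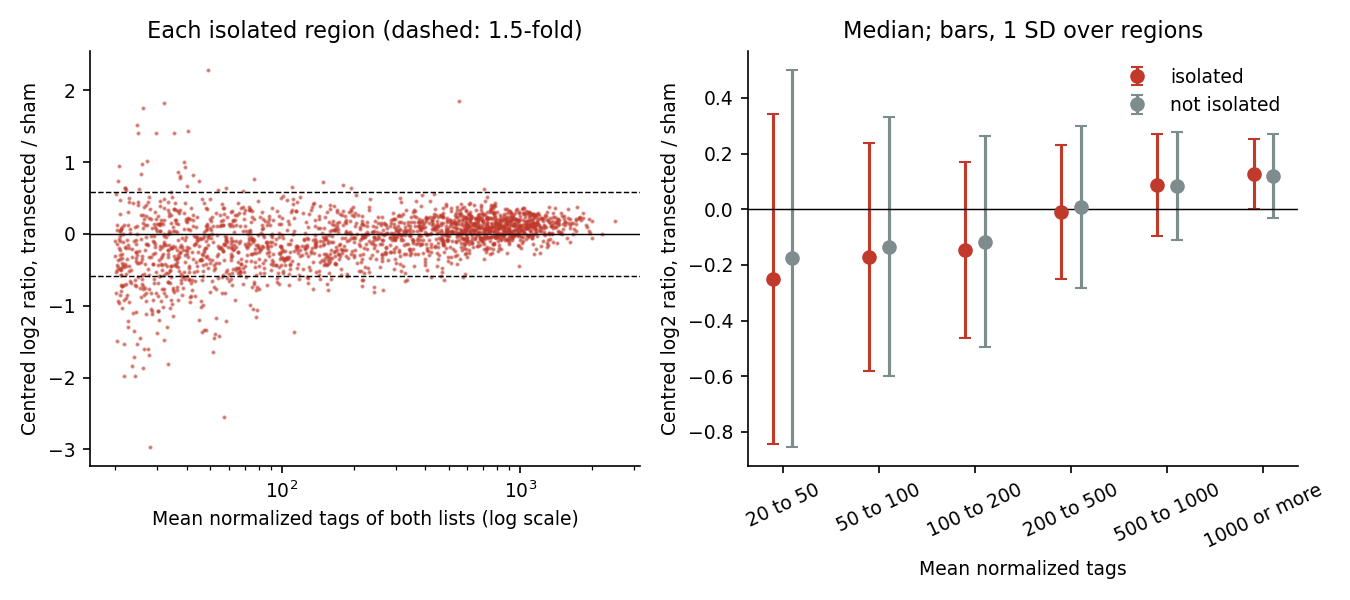
Left, centred log2 ratio of transected over sham normalized tags against mean tags (logarithmic axis) for each isolated region, with dashed lines at 1.5-fold. Right, median ratio (points) and 1 SD over regions (bars) by tag class for isolated (red) and non-isolated (grey) regions, the medians of isolated regions running from -0.25 to 0.13.

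Differences of 2-fold or more were nearly all in weak isolated regions. There were 11 such regions higher in the cut nerve (0.529%, where 0.925% of all shared regions of at least 20 tags were) and 49 lower (2.35%, where 2.48% of all were). Under 100 mean tags lay 10 of the 11 and 48 of the 49. Non-isolated regions at least 1.5-fold apart were mostly weak too: of 2019, 1198 had 20 to 50 mean tags and 398 had 50 to 100. Called lengths moved with the difference: 10 of the 11 higher regions were called longer in the cut nerve, and 48 of the 49 lower regions were called longer in sham. Tags were summed over the called stretch of each list, so a longer call tends to bring more tags by construction. The like share of non-isolated regions is not given here. As tags per kb, 10 of the 11 and 42 of the 49 kept their direction, and 3 and 4 stayed at least 2-fold apart.

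Strong isolated regions were close between the nerves. Of the 1041 members at or above the members' median of 257.8 mean tags, 83.8% differed by less than 1.2-fold after centring. This share was not worked out for non-isolated regions. Their interquartile range of the ratio was close to that of isolated regions, at 0.23 against 0.22 from 500 to 1000 tags. With 1000 or more tags it was 0.18 against 0.16. At least 1.5-fold apart were 9 of them (0.865%), 2 higher and 7 lower in the cut nerve. Among 9135 non-isolated regions with as many tags, 1.63% were, 78 higher and 71 lower.

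The isolated region with the highest ratio in this set was the one at chr2:76896064-76902452 described above. Its centred log2 ratio was 1.85 (interval 1.72 to 1.99), and 0.80 as tags per kb. It was the only one of the 1041 that was at least 2-fold apart. Second was chr2:164062038-164064799, with 570.5 tags in the sham nerve and 839.2 in the cut nerve (log2 0.63, interval 0.52 to 0.73), and 0.39 as tags per kb.

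The next 4 fell short of 1.5-fold. chr1:147217071-147219060 had 361.6 and 504.5 tags, over nearly equal called lengths of 1946 and 1989 bp. chr2:68053960-68055851 had 324.0 and 450.6 tags over 1876 and 1851 bp, with a per-kb log2 ratio of 0.48. chr18:36491369-36493498 had 612.9 and 834.0 tags, but over 1492 and 2050 bp, and as tags per kb its log2 ratio was -0.03. chr3:123912436-123913811 had 267.3 and 360.0 tags. Of the 6 highest, 3 were on chromosome 2, which held 201 of the 2081 members. With only 6 regions, chromosomes were not compared.

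The lowest ratio in this set was at chrX:78694191-78696237, with 341.2 tags in the sham nerve and 189.6 in the cut nerve (log2 -0.78, interval -0.95 to -0.60). It was called over 2046 bp in the sham nerve and 1110 bp in the cut nerve, and its tags per kb were nearly equal (log2 0.02). chr16:8045540-8049932 had 408.5 and 245.9 tags (log2 -0.66), and -0.30 as tags per kb. The broad regions on chromosomes 4 and 11 described above followed, both with a log2 ratio of -0.64, and -0.20 and -0.36 as tags per kb.

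The last 2 of the lowest 6, both on chromosome 4, kept most of their difference when length was divided out. chr4:208165926-208168685 had 709.0 tags in the sham nerve and 445.4 in the cut nerve (log2 -0.60, interval -0.72 to -0.48), with called lengths of 2759 and 2419 bp and -0.50 as tags per kb. chr4:64154877-64156647 had 515.6 and 324.3 tags (log2 -0.60, interval -0.74 to -0.46), with called lengths of 1770 and 1526 bp and -0.47 as tags per kb. Of the 6 lowest, 3 were on chromosome 4, which held 169 of the 2081 members, and here too chromosomes were not compared. The counting intervals leave out the spread between samples and the error of the called edges.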

How the data were processed

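H3K4me3 was profiled in 2 sham and 2 transected nerve samples by MNase ChIP-seq. The authors pooled each group and called 1 peak list on it with HOMER findPeaks (150 bp windows closer than 370 bp stitched, false discovery rate 0.001, threshold of 8 tags, no input library in the command), per the file headers. The caller also required a 4-fold excess over the surrounding 10000 bp, so a weak peak beside a strong one could be dropped. The submitters' processing notes list CASAVA 1.8.2, Bowtie and HOMER. No version of the last 2, and no build, is given in the sources used here. The deposited normalized tag count is a signal scaled to 10000000 tags, per the file headers. The deposited region size (other unit, bp), findPeaks score and clonal fold (a ratio limited to 2 by the caller) were used as the authors gave them.

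Peaks overlapping by 1 bp or more were merged with Python 3.11.15 (pandas 2.3.3, numpy 2.4.6, scipy 1.17.1), and tags and called lengths were summed per list. Unscaled tags, from the header depths, were whole within 0.12 tags for 100.0% of peaks. Log2 ratios were centred on the median of all shared regions, and intervals per region and per share are exact (Clopper-Pearson, 95%), for counting error only, since tags carry no molecular identifiers and several can come from 1 molecule. Comparison regions were weighted to the members' numbers in 6 tag classes with lower edges at 20, 50, 100, 200, 500 and 1000. Merging, distances, weighting and intervals were tested on simulated data. Named regions were, among members, the 6 with most tags, the 5 widest, the 5 most distant, the 6 highest and 6 lowest ratios at or above the members' median tag count, and the 2 just inside and 2 just outside each limit; the region lists under 350 bp and in consecutive series were added after values were seen. The members and lists were chosen with earlier results of these data known. No test was possible with 1 list per condition. Alternatives changed the distance, tag minimum, neighbours, peak threshold, merging, scaling and tag classes.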

Additional observations from a re-analysis of the deposited data

How the results depend on the processing

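No paired analysis was possible because the authors pooled the samples of each group, and for the same reason no sample could be left out in turn. The number of isolated regions (2081 as reported) was 4523 at a distance of 25 kb, 771 at 100 kb and 3126 with only neighbours in both lists. The share of shared regions isolated (10.5%) was then 22.9%, 3.9% and 15.8%, and it was 13% with neighbours wider than 1 window, 14.9% with peaks of at least 16 tags and 13.7% with peaks within 1 kb merged. The median merged width (1373 bp) was 1316 bp at 100 kb, 1125 bp and 1555 bp with at least 10 and 40 mean tags, and 1447.5, 1426, 1450 and 1553 bp with neighbours in both lists, neighbours wider than 1 window, peaks of at least 16 tags and peaks within 1 kb merged. The median centred log2 ratio (0.00) was -0.03 at 100 kb, -0.024 and 0.022 with at least 10 and 40 tags, -0.07 without centring and -0.015 centred by tag class. The share at least 1.5-fold apart (10.1%) was 13% at 100 kb, 16.6% and 5.51% with at least 10 and 40 tags, 6.2% as tags per kb, 12% without centring, 8.27% centred by tag class and 2.88% at 2-fold.

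The following were chosen after seeing the data. The share at least 1.5-fold higher (1.68%) was 2.79% centred by tag class and 2.33% at 100 kb. The SD of the log2 ratio in isolated over non-isolated regions (0.871) was 0.949 against non-isolated regions over 5 kb from a neighbour, 0.921 as tags per kb and 0.938 as an interquartile range. At 1000 or more tags, median length in isolated over non-isolated regions (0.832) was 0.925 against those over 5 kb from a neighbour, 0.743 at 100 kb and 0.873 with peaks within 1 kb merged. Of 29 named regions, 9 were at least 1.5-fold apart, and 1 of these changed sign, the one on chromosome X at 78694191, from -0.78 to 0.02 as tags per kb. Counting also those under 1.5-fold, 7 of the 29 log2 ratios changed sign as tags per kb, 2 without centring and 7 centred by tag class, and besides that X region 14 of the 29 lay outside their counting interval as tags per kb. The causes were not tested. Under the other alternatives the number of isolated regions ranged from 1725 with at least 40 tags to 2937 with peaks of at least 16 tags, within 1.5 times the number reported. Neighbours under the caller's threshold of 8 tags were not seen.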
